A study of Mus musculus with 21 samples.

Results

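The Iroquois homeobox genes were followed in the newborn subcommissural organ (SCO) and hippocampus of the mouse. The family has 6 members, Irx1 to Irx6, taken by gene name from a table of 31883 genes, and 5 of the 6 have a row there. Irx4 was not analysed here. The libraries are bulk RNA sequencing of C57BL/6 mice sampled on postnatal day 0 (P0), 4 from SCO and 5 from hippocampus. All are from untreated tissue as far as the labels say, and no allele or agent is named. Another 12 samples, from postnatal day 60, were not used here. The SCO is a gland of secretory ependyma that roofs the third ventricle beneath the posterior commissure, where diencephalon meets midbrain. The labels give no dissection boundary and do not say whether a library is 1 animal or a pool. P-values thus cover only how these samples spread, and that spread may be technical.

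Iroquois proteins are transcription factors with a TALE class homeodomain, first known from the fly, where they set up sensory organ patterns through proneural genes. In the mouse the genes lie in clusters of 3, with Irx1, Irx2 and Irx4 on chromosome 13 and Irx3, Irx5 and Irx6 on chromosome 8. In the embryonic brain they are known from the diencephalon, midbrain and hindbrain, and are largely missing from the telencephalon, from which the hippocampus arises. In the chick, Irx3 marks the diencephalon behind the zona limitans and gives it the competence to form thalamus. In the mouse, Irx5 and Irx6 are known from retinal bipolar cells, and Irx3 and Irx5 from the electrical patterning of the heart.

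Irx2 had the most reads of the family, and its start faces another gene. In the build GRCm38 Irx2 (ENSMUSG00000001504.10) spans 72628820 to 72634198 of chromosome 13, plus strand. The noncoding RNA gene Gm20554 runs the other way from a start 256 bases upstream, so the stretch below is nearly the whole gap between both starts. It holds no annotated exon. These 250 bases are the part of the RefSeq promoter window (GRCm38.p6) that lies upstream of Irx2, chr13:72628570-72628819, with each CG dinucleotide in capitals.
Irx2 upstream: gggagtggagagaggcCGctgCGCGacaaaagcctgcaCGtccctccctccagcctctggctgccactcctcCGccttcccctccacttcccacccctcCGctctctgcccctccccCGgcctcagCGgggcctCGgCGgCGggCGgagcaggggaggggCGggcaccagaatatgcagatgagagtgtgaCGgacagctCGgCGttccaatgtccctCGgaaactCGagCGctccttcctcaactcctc
The stretch holds 19 CG dinucleotides, more than 80.3% of 32841 mouse promoter stretches of that length, and its G and C content of 68.4% is higher than in 88.4% of them. The Iroquois binding motif ACANNTGT, which reads the same on both strands, has no match in it, and neither has TATAAA on either strand, so no matches overlap. Among all the stretches, 6.31% hold ACANNTGT and 12.4% hold TATAAA. Irx2, Irx3 and Irx4 are the members found by symbol in the promoter table. The stretch of Irx3 lies in an annotated exon, so its letters are not shown.

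Values are normalized counts: each library's reads per gene over that library's size factor. Recovered depth was 35379988 to 64242533 reads in SCO libraries and 36787949 to 151009954 reads in hippocampus libraries. The labels were set beside markers. These lists were chosen with earlier results of these data known, so this is a weak check. The SCO genes Sspo, Spdef and Car3 took 0.0187% to 0.0568% of reads in SCO and 0.000176% to 0.000758% in hippocampus. Markers of thalamus, pretectum and midbrain neurons took 0.0955% to 0.159% of reads in SCO, against 0.00825% to 0.0140% in hippocampus, and 5 of 11 rose. Markers of habenula neurons took 0.00533% to 0.0466% in SCO and 0.00420% to 0.00520% in hippocampus, and 1 of 7 rose. Red blood cell markers took 0.0804% to 0.148% in SCO and 0.00781% to 0.0445% in hippocampus, and 4 of 5 rose. Hippocampus markers took 0.00813% to 0.0174% in SCO and 0.0741% to 0.127% in hippocampus, and 5 of 6 fell. Choroid plexus markers reached 0.311% in SCO replicate 4, were at most 0.00797% in the other SCO libraries, and took 0.000152% to 0.0230% in hippocampus. None of 5 choroid, 6 meningeal, 3 pineal and 6 endothelial markers passed limma or edgeR. At an unadjusted limma p under 0.05 the counts were 1, 0, 0 and 1, as they were in DESeq2. The part of these cells in the Irx values was not tested. Bulk values cannot tell fewer cells of a type from less RNA per cell, nor SCO cells from neurons sampled with them.

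Across the whole family, 1447 reads were found among 186434899 reads in SCO and 1 among 427962176 reads in hippocampus. The read in hippocampus belonged to Irx2, in replicate 2. The depth-scaled ratio of family reads was 3320, with a 95% exact interval from 595 to 131000 that covers counting error only. Irx2 and Irx3 rose in SCO, 2 of 5 members tested, at an adjusted p under 0.05 in limma over all 28150 genes tested. Over all genes 1.71% were higher in SCO by this test and 1.34% lower. The libraries of the 2 tissues did not overlap for Irx1, Irx2 and Irx3, which were higher in every SCO library, as were 4.78% of all tested genes, while 3.75% were lower in every SCO library and 8.53% did not overlap in either direction. For Irx1 the lack of overlap rested on 1 read each in SCO replicates 1 and 2. The members' median log2 fold change was 3.64, against -0.0393 over all tested genes. It was 6.70 with the 4 members that have no hippocampus read set to their lower bound. That bound is a ratio of pooled reads, and no such bounds entered the median over all genes. The direction was the same for all 5, and with 1 hippocampus read in the family it could hardly differ. Irx1, Irx5 and Irx6 did not pass.

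Irx2 had 283, 400.2, 268 and 310.1 normalized counts in SCO replicates 1 to 4, against 0, 1.65, 0, 0 and 0 in hippocampus replicates 1 to 5. Every SCO library was far above every hippocampus library, and the SCO libraries lay close together. The mean was 315 ± 59.2 (SD, n = 4 libraries) in SCO and 0.330 ± 0.738 (SD, n = 5 libraries) in hippocampus, which limma put at 8.01 on the log2 scale (SE 0.90, adjusted p = 0.00111). Scaled to the depth above as RPM, Irx2 reached 5.53 RPM in SCO and 0.00234 RPM in hippocampus, a ratio of 2370 with a 95% exact interval from 424 to 93600, counting error only. The SD was 18.8% of the mean across SCO libraries. Of 4781 tested genes with a SCO mean from 150 to 600 normalized counts, 96.7% varied more than that, and their median was 77.2%. Irx2 stood at percentile 53.6 of tested genes by its SCO mean.

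Irx3 had 37.3, 54.6, 69.4 and 10.1 normalized counts in SCO replicates 1 to 4, and no read in any hippocampus library. Replicate 4 was the lowest of the SCO libraries, and the tissues did not overlap. The mean was 42.9 ± 25.5 (SD, n = 4 libraries) in SCO and 0 in hippocampus, and limma put the difference at 5.17 on the log2 scale (SE 0.87, adjusted p = 0.0106). With a floor of 3 reads over the hippocampus group, as for every bound here, its RPM in SCO was at least 112-fold higher. Replicate 3 held 76 of the 147 reads, and the bound was 82.9-fold without it and 145-fold without replicate 4. In edgeR's quasi-likelihood test on the recovered reads the adjusted p of Irx3 was 0.0879, so its limma call is not shared by edgeR. Irx2 passed in edgeR (adjusted p = 0.0143). Irx3 (ENSMUSG00000031734.13, chromosome 8, 91798525 to 91802067, minus strand) shares 1653 bases of gene span with the antisense gene Irx3os. No source used here gives the strand setting, so reads of the pair cannot be told apart in the shared bases.

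Irx5 (ENSMUSG00000031737.11, chromosome 8, 92357625 to 92376286, plus strand) had 151, 48.7, 0 and 2.24 normalized counts in SCO replicates 1 to 4, and no read in hippocampus. It was high in SCO replicates 1 and 2 and near or at 0 in the others, so the tissues overlapped at 0. The mean was 50.4 ± 70.5 (SD, n = 4 libraries) in SCO, and the fold change did not pass (log2 3.64, SE 1.38, limma adjusted p = 0.225). By RPM it was at least 104-fold higher in SCO. Replicate 1 held 101 of the 136 reads, and the bound was 33.1-fold without it and 159-fold without replicate 3. The habenula markers took 0.0466%, 0.0279%, 0.00533% and 0.00556% of reads in SCO replicates 1 to 4, also highest in replicates 1 and 2. So were the pineal markers (0.00946%, 0.000257%, 1.56e-06% and 5.93e-06%) and, with smaller differences, the SCO, endothelial and red blood cell markers. The pineal share in SCO replicate 1 was nearly all Tph1 (3326, 0, 1 and 0 reads in SCO replicates 1 to 4), and Crx had no read in SCO. In hippocampus the pineal markers took 2.79e-06% to 0.00181%, a range that holds the share of SCO replicate 2. Markers of thalamus, pretectum and midbrain neurons (0.105%, 0.0955%, 0.13% and 0.159%) were instead lowest in replicates 1 and 2. The hippocampus, choroid plexus and meningeal markers were each highest in replicate 3 or 4. The part of any of these in the Irx5 values was not tested.

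Irx6 had 0, 100.4, 28.3 and 0 normalized counts in SCO replicates 1 to 4, and no read in hippocampus. The libraries with Irx6 were thus replicates 2 and 3, and replicate 2 held both Irx5 and Irx6. The mean was 32.2 ± 47.4 (SD, n = 4 libraries) in SCO (limma log2 fold change 2.88, SE 1.38, adjusted p = 0.350). Irx1 (ENSMUSG00000060969.9, chromosome 13, 71957921 to 71963723, minus strand) was found in every SCO library at low level, with 1.49, 1.48, 23.7 and 6.72 normalized counts, and had no read in hippocampus. Those SCO values were 1, 1, 26 and 6 reads. The mean of Irx1 was 8.36 ± 10.55 (SD, n = 4 libraries) in SCO, from 34 reads in all (limma log2 fold change 2.55, SE 0.84, adjusted p = 0.149). Irx6 (ENSMUSG00000031738.14, chromosome 8, 92674288 to 92680956, plus strand) shares 785 bases of gene span with Gm45505, which has no values here. Where exons of the pair overlap, their reads cannot be told apart. By RPM Irx6 was at least 75.8-fold and Irx1 at least 26.0-fold higher in SCO. Both bounds rest largely on 1 library: replicate 2 held 68 of the 99 Irx6 reads and replicate 3 held 26 of the 34 Irx1 reads. Without that library the bound was 29.4-fold for Irx6 and 9.34-fold for Irx1. Of 5333 tested genes with a SCO mean from 10 to 100 normalized counts, 67.2% had no read in at least 1 SCO library, as Irx5 and Irx6 did. Of the 28150 tested genes, 1565 had no read in any hippocampus library, and 53 of the 1565 had a read in every SCO library, Irx1 and Irx3 among them.

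**Figure D1:**
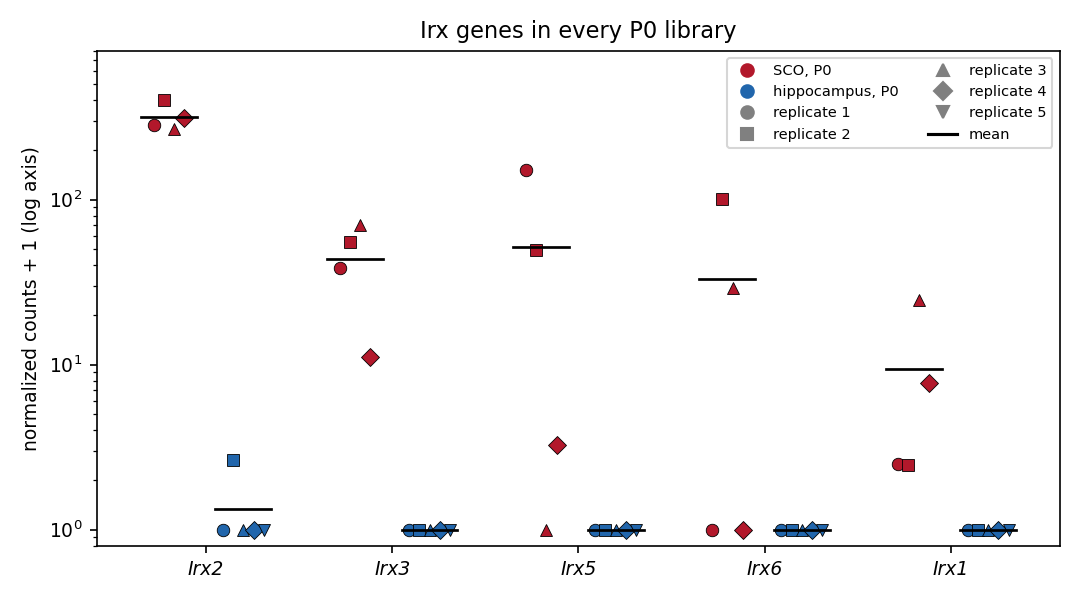
Normalized counts + 1 on a log axis for the Irx genes, with SCO libraries in red at the left and hippocampus libraries in blue at the right of each gene, 1 symbol per replicate and a black line at the mean. Irx2 sits between 268 and 400.2 in all 4 SCO libraries, Irx5 and Irx6 are at 0 in some of them, and the hippocampus shows only the 1 read of Irx2.

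In the authors' deposited table, where a positive log2 fold change means higher in SCO by the library values, Irx2 had 10.51 (SE 1.06, adjusted p = 2.07e-20). For Irx3 the authors' deposited table gives 8.22 (SE 1.91, adjusted p = 0.000408) and for Irx5 8.45 (SE 3.07, adjusted p = 0.0476). Irx6 has 7.80 (adjusted p = 0.0922) in the authors' deposited table, and Irx1 has 5.86 with no adjusted p. Irx5 is thus past 0.05 in that table and not in limma. DESeq2 on the recovered reads gave Irx5 the same log2 fold change, 8.45, with an adjusted p of 0.05045, just short of the threshold.

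Levels of different members were compared per kilobase of merged exons. In SCO, Irx2 had 96.1 ± 18.0 normalized counts per kilobase (SD, n = 4 libraries), Irx5 16.1 ± 22.6, Irx3 15.5 ± 9.23, Irx6 9.55 ± 14.1 and Irx1 3.19 ± 4.03. Irx2 was 5.96 times as high as Irx5, next in the order, and higher in 4 of 4 SCO libraries with no overlap of their ranges. The ranges of Irx5 and Irx3, of Irx3 and Irx6, and of Irx6 and Irx1 overlapped, so their order is not set beyond the spread between libraries. Without SCO replicate 1, Irx5 had 5.43 per kilobase and stood below Irx3, and without replicate 2 Irx6 had 2.80. Without SCO replicate 3 Irx1 had 1.23 per kilobase. Irx2 made up 59.9%, 66.1%, 68.8% and 94.2% of the family's normalized counts in SCO replicates 1 to 4. On the same scale per kilobase the SCO level of Irx2 lay below that of Otx2 (1963), Pax3 (436) and Sspo (272).

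The profile over the 9 libraries most like that of Irx2 belonged to Itpr3, which encodes an inositol trisphosphate receptor, to Lbhd2, and to Evpl, which encodes the plakin envoplakin. Likeness was the root mean square difference of centred log2(value + 1), which was 0.742, 0.742 and 0.787 for these genes among 14345 protein-coding candidates. Itpr3 had 179, 251, 514 and 228 normalized counts in SCO replicates 1 to 4 and at most 2.06 in hippocampus. Lbhd2 had 189, 115, 450.2 and 273 in SCO and no read in hippocampus. Evpl had 906, 269, 274 and 461 in SCO and at most 0.381 in hippocampus. All 3 were higher in every SCO library, which follows from choosing them by likeness to Irx2.

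Genes around the Irx clusters were then compared, taking all 70 in the table within 1 Mb of either cluster. Of the 57 tested, Irx3os and Crnde rose, 2 genes, both inside the chromosome 8 cluster. Over all tested genes 1.71% were higher and 3.05% were called in either direction, so the neighbours' share is near that background. The rest did not pass limma, among them all 26 protein-coding neighbours it tested. At an unadjusted limma p under 0.05 there were 9 of 57, while edgeR called 0. DESeq2 called 4 and a different set: Irx3os, Gm40999 and the protein-coding Gm19935 were higher in SCO, and the protein-coding Brd9 was lower. The median of the 57 was 0.116, with and without bounds. Crnde is a noncoding RNA gene whose start lies 1505 bases from that of Irx5 on the other strand. It had 607, 1672, 304 and 477 normalized counts in SCO replicates 1 to 4, against 0, 84.2, 0, 0 and 0 in hippocampus replicates 1 to 5. All SCO libraries were above all hippocampus libraries (limma log2 fold change 7.99, SE 1.48, adjusted p = 0.0174), but not past edgeR (adjusted p = 0.244) or DESeq2 (adjusted p = 0.0557), and without SCO replicate 2 limma gave 0.0570.

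Irx3os had 16.4, 170, 48.4 and 8.95 normalized counts in SCO replicates 1 to 4 and no read in hippocampus (limma log2 fold change 5.12, SE 1.00, adjusted p = 0.0218). Its highest and lowest SCO libraries were replicates 2 and 4, and Irx3 was lowest in replicate 4 too. Its call ended in 4 of the 9 left-out libraries (limma adjusted p up to 0.0625) and in edgeR (adjusted p = 0.0999). On chromosome 13, Gm20554, which faces Irx2, had 0, 50.2, 1.83 and 119 normalized counts in SCO replicates 1 to 4 and none in hippocampus (limma adjusted p = 0.234). Gm40999, next to Irx1, had 1.49, 159, 0.913 and 121 in SCO and none in hippocampus (limma adjusted p = 0.177). The Irx2 gene was even across SCO libraries, while the noncoding gene that shares the stretch printed above ranged from 0 to 119. Gm20554 had a lower SCO mean, 42.7. Of tested genes with a SCO mean from 10 to 100, 67.2% had no read in at least 1 SCO library. A link between Irx2 and Gm20554 was not tested. Fto, the demethylase gene beside Irx3 whose introns hold enhancers of Irx3 in mouse and human, averaged 12770.4 ± 3651 normalized counts in SCO (SD, n = 4 libraries) and 9208 ± 4602 in hippocampus (SD, n = 5 libraries), and did not pass (limma log2 fold change 0.74, SE 0.59, adjusted p = 0.594).

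**Figure D2:**
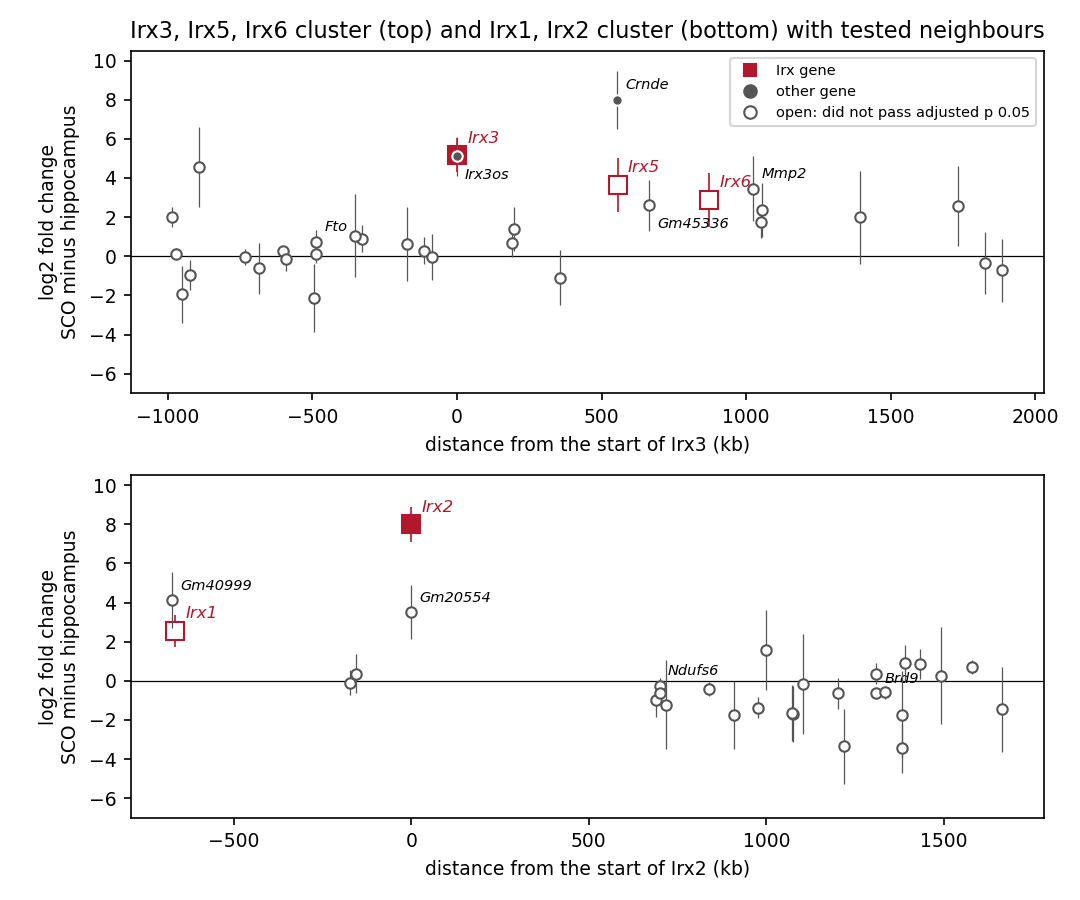
Log2 fold change, SCO minus hippocampus, with its SE, of Irx genes (red squares) and tested neighbours (circles) by distance in kb from the start of Irx3 (top) and of Irx2 (bottom). Filled symbols passed an adjusted p of 0.05; Irx2, Irx3, Irx3os (drawn over Irx3) and Crnde did, and Fto at 0.74 did not.

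Regional partners were read from lists of textbook genes. These lists, like the other gene lists below, were chosen with earlier results of these data known. Their shares of called genes are thus not independent of these data. Of 15 tested transcription factors of caudal diencephalon and midbrain, 5 rose, Pax3, Gata3, Otx2, Tcf7l2 and Lhx9, and 10 did not pass, against 1.71% of all genes higher in SCO. The list's median log2 fold change was 3.44, and 4.11 with members at 0 reads set to their bound. Tcf7l2, a Wnt effector of the thalamus, had 31474, 22202, 45655 and 49664 normalized counts in SCO, against 371, 617, 52.6, 244 and 53.7 in hippocampus (limma log2 fold change 7.66, SE 0.73, adjusted p = 0.000589). Otx2, a homeobox gene of diencephalon and midbrain, had 8654, 8708, 7705 and 8084 in SCO and at most 197 in hippocampus. Pax3, a dorsal neural tube factor, had 2684, 2049.5, 3654 and 2394 in SCO and no read in hippocampus. Gata3 ranged from 1113 in SCO replicate 2 to 8755 in replicate 4. Lhx9, a LIM homeobox gene of thalamus and pretectum, had 5935, 3148, 2669 and 3101 in SCO and 763 to 1480 in hippocampus (limma log2 fold change 1.73, SE 0.35, adjusted p = 0.0246), a call lost in 3 of the 9 left-out libraries (adjusted p up to 0.0627).

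Midbrain and thalamic genes of the same list gave these values. En1 averaged 3.42 ± 6.85 normalized counts in SCO (SD, n = 4 libraries) and 2.17 ± 3.63 in hippocampus (SD, n = 5 libraries), and En2 had 2 reads in SCO and none in hippocampus, too few to be tested. Pax7, found in the dorsal midbrain, had 0, 384, 0.913 and 188 in SCO and at most 0.381 in hippocampus (limma adjusted p = 0.279). Gbx2, a thalamic homeobox gene, had 186.5, 1.48, 0 and 0 in SCO replicates 1 to 4, and none in hippocampus (limma adjusted p = 0.514). SCO replicate 1, which held nearly all of the Gbx2 reads, was also the library with the most Irx5. Pax7 had no read in that library. A link of Gbx2 or Pax7 with Irx5 was not tested. Lhx9, Tcf7l2, Gata3, Gbx2 and Pax7 also stand in the marker list of thalamus, pretectum and midbrain neurons given above.

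Of 10 tested transcription factors of telencephalon and anterior forebrain, 5 fell, among them Fezf2, Tbr1, Emx2 and Lhx2, against 1.34% of all genes lower in SCO, with a median of -4.30. Tbr1, a factor of cortical glutamatergic neurons, had 12.3 in SCO replicate 4, no read in the other SCO libraries, and 542 to 2628 normalized counts in hippocampus (limma log2 fold change -9.27, SE 1.01, adjusted p = 0.000916). Lhx2, a cortical selector, averaged 121 ± 109 in SCO (SD, n = 4 libraries) and 1837 ± 726 in hippocampus (SD, n = 5 libraries). Emx2, needed for hippocampal growth, had 21.3 in SCO replicate 4, no read in the other SCO libraries, and 150 to 581 in hippocampus. The edgeR test passed Lhx2 and Tbr1, not Emx2 (adjusted p = 0.151) or Fezf2 (adjusted p = 0.157). Six3, known from the chick as a repressor of Irx3 in front of the zona limitans, had 49.2, 0, 0.913 and 216 in SCO and at most 1.83 in hippocampus (limma adjusted p = 0.338).

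**Figure D3:**
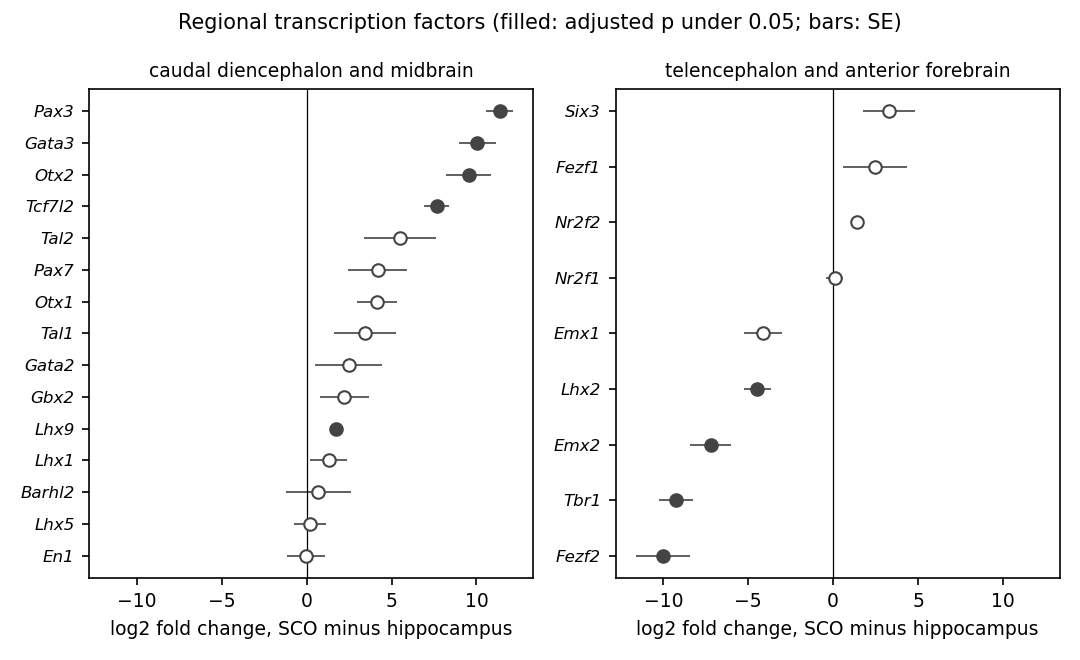
Log2 fold change, SCO minus hippocampus, with its SE, for transcription factors of caudal diencephalon and midbrain (left) and of telencephalon and anterior forebrain (right), filled where the adjusted p was under 0.05. The filled genes at left lie between 1.73 (Lhx9) and 11.36 (Pax3), and those at right between -10.04 (Fezf2) and -4.46 (Lhx2).

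Of 12 tested TALE homeobox genes outside the family, Meis1 rose, 1 gene, and the list's median was 0.374, against 3.05% of all genes called in either direction. Meis1, a cofactor of other homeodomain proteins, had 968, 4979, 2422 and 1565 normalized counts in SCO, against 0, 1.65, 244, 0 and 130.5 in hippocampus (limma log2 fold change 7.74, SE 1.76, adjusted p = 0.0426). That call was lost in 7 of the 9 left-out libraries (adjusted p up to 0.121) and in edgeR (adjusted p = 0.204). Meis2 was lower in every SCO library, 369 ± 413 in SCO (SD, n = 4 libraries) and 3148 ± 556 in hippocampus (SD, n = 5 libraries), and did not pass (limma adjusted p = 0.107). For Pbx3, the means were 2021 ± 912 in SCO and 491 ± 356 in hippocampus (limma adjusted p = 0.104).

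Among 14 tested patterning signals and readouts, Fgf15, a growth factor gene of diencephalon and midbrain, rose, 1 gene, with a list median of 1.47, against 1.71% of all genes higher in SCO. Fgf15 averaged 4572 ± 842 normalized counts in SCO (SD, n = 4 libraries) and 99.9 ± 185 in hippocampus (SD, n = 5 libraries) (limma log2 fold change 8.74, SE 1.70, adjusted p = 0.0218). The Fgf15 call was lost without any 1 of the 4 SCO libraries (adjusted p up to 0.0598) and in edgeR (adjusted p = 0.157). Wnt3 had 1577 ± 458 in SCO and 114 ± 67.3 in hippocampus and did not pass (limma adjusted p = 0.0905). Shh had no read in SCO and 48.5 in 1 hippocampus library, replicate 3.

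In a list of partner proteins and of genes reported to depend on Irx factors in heart and embryo, Gata3 rose, 1 of 8 tested, against 1.71% of all genes higher in SCO, and the median was -0.112. Gata3, which binds IRX5 in human cells, is also in the caudal list, and averaged 3528 ± 3563 in SCO (SD, n = 4 libraries) and 3.43 ± 6.42 in hippocampus (SD, n = 5 libraries). The potassium channel gene Kcnd2, which Irx5 represses in the mouse heart, had 5900 ± 1132 in SCO and 5999 ± 1911 in hippocampus (limma log2 fold change 0.01, SE 0.27, adjusted p = 0.991). Gja1, a connexin gene that Irx3 represses in the mouse heart, was higher in every SCO library, 11479 ± 4797 in SCO and 4942 ± 1070 in hippocampus, and did not pass (limma adjusted p = 0.0712). Of 5 tested proneural genes, Neurod1 and Neurog2 fell, 2 genes, against 1.34% of all genes lower in SCO, with a list median of -0.102. Neurod1, a factor of differentiating granule neurons, averaged 1119 ± 683 in SCO and 7713 ± 2480 in hippocampus (limma log2 fold change -3.002, SE 0.49, adjusted p = 0.00897). Neurog2 had 7.46 in SCO replicate 1 and no read in the other SCO libraries, and 25.1 to 428 in hippocampus. The Neurog2 call (limma adjusted p = 0.0308) was lost in 5 of the 9 left-out libraries (adjusted p up to 0.0812).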

How the data were processed

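Read counts per gene were deposited by the authors as a normalized signal, divided by 1 size factor per library. The submitters' processing notes name GRCm38 as the build and list DESeq2, featureCounts, FastQC, HISAT and HISAT2; no source used here gives versions or the strand setting. Per the file headers, the authors' comparison gives a log2 fold change, its SE, a score, a p-value and an adjusted p-value. Dividing each library by the value of 1 read gave whole reads for 100% of values (tolerance 1e-06), and edgeR called 503 and DESeq2 2708 of 28150 genes on them, limma 859. Columns of other series numbered 0.

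Limma-trend (limma 3.58.1, R 4.3.3) was run on log2(value + 1), a scale that understates changes of low genes, for genes whose mean reached 1 in a tissue, with Benjamini-Hochberg adjustment over all genes. The fit was tested on simulated data, with changes placed only in genes of a higher overall mean than Irx1, Irx3 and Irx6. Fitted fold changes of genes without a read in a tissue depend on the pseudocount of 1. Alternatives used edgeR 4.0.16, DESeq2 1.42.0, other pseudocounts, filters and scalings, replicate blocks and left-out libraries. Positions and exon lengths come from GENCODE M21, where 31302 identifiers matched. Members and lists were chosen with earlier results of these data known. The naming rule takes all members, all called list genes, and the 3 protein-coding genes with the profile most like that of each member with a mean of at least 100 in a tissue; further list genes were named after their values were seen. Intervals and the floor of 3 reads cover counting error only. Some list members enter the counts and medians but are not reported here by name.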

Additional observations from a re-analysis of the deposited data

Results flagged for a closer look

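In 24 genes, 40 groups of libraries were examined by a gap test for a library that stands far from the rest, and 11 held one. In 7 of the 11 (Irx2, Crnde, Evpl, Emx2, Fezf2, Tbr1 and Neurog2) every other library was at 0, so that any read at all passes and the gap test has no meaning there. For the other 4, chance would pass about 1 of 20 groups if values were normally distributed, which counts need not be. In hippocampus, the libraries were replicate 2 for Irx2 (1.65 normalized counts, 1 read), Crnde (84.2) and Gata3 (14.9), replicate 1 for Otx2 (197), and replicate 5 for Fgf15 (426) and Evpl (0.381). In SCO, they were replicate 4 for Emx2 (21.3), Fezf2 (332) and Tbr1 (12.3), and replicate 1 for Lhx9 (5935) and Neurog2 (7.46). Of these, Irx2 is the member of the family. Without hippocampus replicate 2, Irx2 had a log2 fold change of 8.29 (limma adjusted p = 0.00129).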

How the results depend on the processing

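Irx2 and Irx3 kept their call without any 1 of the 9 libraries (limma adjusted p 0.00129 to 0.00547 for Irx2 and 0.00852 to 0.0375 for Irx3). All 5 members stayed higher in SCO under each of their alternatives, but with 1 hippocampus read in the family the direction could hardly differ. Of 20 alternatives, 18 passed Irx2 and 17 Irx3, while Irx1, Irx5 and Irx6 passed in none. The replicate blocks described below are among the 20 and passed no member. In edgeR the calls were 1 of the family, 0 of the TALE genes, 0 of the signals, 3 of the anterior factors, 1 of the proneural genes and 0 of the neighbours. DESeq2 called 3 TALE genes, 3 signals, 2 partners and 4 neighbours. With a pseudocount of 10 the calls were 2 signals, 1 proneural gene and 1 neighbour, with a pseudocount of 0.5 they were 0 TALE genes, and without a filter 0 TALE genes and 1 proneural gene. Without SCO replicate 4 and hippocampus replicate 2 together, 0 signals and 1 proneural gene were called. Over the left-out libraries the counts ranged from 0 to 1 for TALE genes, 0 to 2 for signals, 1 to 2 for partners, 1 to 2 for proneural genes and 1 to 2 for neighbours. Over all genes limma called 859, edgeR 503 and DESeq2 2708, and limma called 498 to 1077 without 1 library. Per kilobase of the longest transcript, Irx2 had 120.1 in SCO. The cause of these changes was not tested. The bounds without 1 SCO library were added after seeing the data.

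Numbers in the titles and in the column names are shared between tissues but nothing ties them to an animal or a batch. Deviations of same-numbered libraries correlated at 0.008, -0.030, 0.047 and -0.051 over 16631 genes for the numbers in the titles, and at -0.030 and 0.097 for those in the columns. A replicate block by either number gave 0 calls in each of the 8 lists (limma adjusted p 0.0766 and 0.132 for Irx2 and Irx3 by title). It called 1 and 0 of all genes.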
